A study of Mus musculus with 4 samples.

Results

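The genes described here are 10 transcripts of the disease-associated microglia (DAM) state, taken by symbol from a table of 15586 genes: Apoe, Spp1, Lpl, Cst7, Itgax, Gpnmb, Lgals3, Igf1, Csf1 and Fabp5. All 10 were in the table, each in 1 row. Microglia are the resident macrophages of the brain and retina. Around dying neurons, amyloid or damaged myelin they can lose homeostatic transcripts and gain a programme of lipid uptake, lysosomal and secreted genes, and much of that programme depends on the lipid receptor TREM2 and its adaptor TYROBP. In degenerating retina a related state has been described in microglia near photoreceptors, with Spp1, Gpnmb, Lgals3 and Apoe among its best-known transcripts.

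RNA was measured in sorted retinal microglia of 2-month-old mice, 2 libraries per group and 200 cells per library. The 2 TAK1 knockout libraries came from mice injected intraperitoneally with tamoxifen at 75 mg/kg on 5 days in a row, whose genotype label reads Cx3cr1CreER/+;Tak3fl/fl although the protocol names Tak1. The 2 control libraries came from Cx3cr1CreER/+;Tak1fl/fl mice given corn oil in the same way. TAK1, the product of Map3k7, is a kinase that passes cytokine and innate immune signals to NF-kB and to MAP kinases, and its deletion was made in adult animals.

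All 4 libraries share the Cx3cr1 Cre allele, which is active in microglia and also in other Cx3cr1-expressing myeloid cells. Cells were collected by their EYFP label. Tamoxifen was given to the knockout group alone, so the drug and the deletion cannot be told apart. No retinal disease allele is given in the sample labels, which also do not say whether libraries came from separate animals, so p-values measure only the spread between these libraries, which may be technical. Map3k7 read 0.02 and 0.08 FPKM in the knockouts, against 0.03 and 0 FPKM in the controls, too low in either group to check the labels.

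The unit throughout is FPKM, fragments scaled to transcript length and library size by the authors, so levels of different genes can be set side by side. Read depth per library is unknown. The knockout libraries held 6055 and 5628 genes at or above 1 FPKM, against 4481 and 3777 in the control libraries. The test was run on 7823 genes whose 4-library mean reached 1 FPKM, and 32.1% of them had over 90% of their summed FPKM in a single library. Genes used by every cell were among those with values near 0: Tbp, the TATA-binding protein gene, read 81.2 and 0.32 FPKM in the knockouts, against 27.2 and 0.19 FPKM in the controls. A reading near 0 in 1 library is therefore weak evidence of silence. Microglial identity was present in every library: all 10 defining microglial and myeloid markers passed the filter, and Aif1, which encodes the actin-binding protein IBA1, read 1246 and 1611 FPKM in the knockouts and 2389 and 2318 FPKM in the controls. In such bulk samples, fewer cells of a type and less RNA per cell cannot be told apart.

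The DAM genes fell into 3 classes of abundance. Apoe and Spp1 were among the most abundant transcripts of the cells. Lpl, Fabp5 and Lgals3 were of middle abundance, with means of 41.5, 40.2 and 39.0 FPKM over the 4 libraries. The other 5 were under 1 FPKM in at least 3 libraries each. Apoe and Spp1 together made up 99.1% and 96.1% of the summed FPKM of the 10 genes in the knockouts and 98.1% and 99.9% in the controls. As a share of all FPKM, the 10 genes took 1.2% and 0.583% in the knockouts, against 1.23% and 0.892% in the controls. That is 0.894% ± 0.439 and 1.06% ± 0.237 (SD, n = 2 each), a difference smaller than the spread between libraries.

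**Figure D1:**
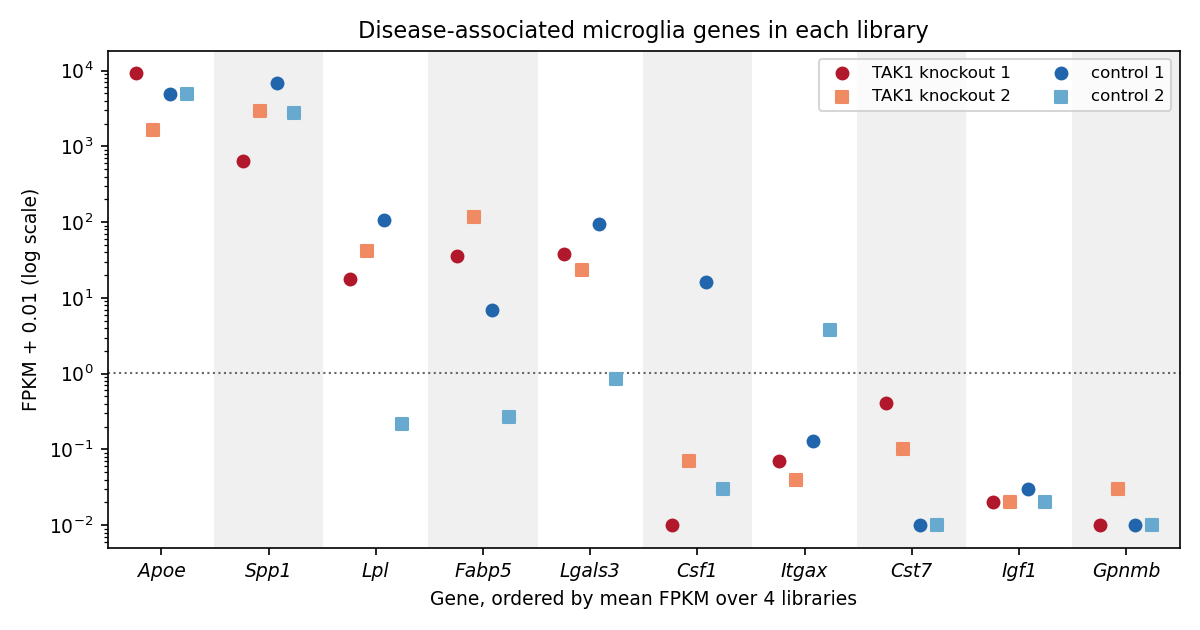
FPKM plus 0.01 on a log axis for each of the 10 genes in the 2 TAK1 knockout and the 2 control libraries, 1 point per library; the dotted line marks 1 FPKM. Apoe and Spp1 lie at 631 FPKM or more in every library, Fabp5 is higher in both knockouts than in both controls, and control 2 is lowest for Lpl, Fabp5 and Lgals3.

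None of the 6 DAM genes that were tested passed the test between knockout and control. The other 4 averaged under 1 FPKM and did not enter it. Of the 6 with a mean of at least 1 FPKM, Apoe, Spp1, Lpl, Fabp5, Lgals3 and Csf1, limma's moderated test on log2(FPKM + 1) called 0 higher and 0 lower after Benjamini-Hochberg adjustment over all 7823 genes (adjusted p = 0.62 to 0.842). The background was the same, at 0.0% of tested genes called higher and 0.0% called lower. At an unadjusted p under 0.05, 1 of the 6, Fabp5, stood higher and none lower, against 6.07% of all tested genes higher and 1.62% lower. Groups did not overlap in 1 of the 6, with Fabp5 above both controls and none below, against 27.8% of tested genes above and 11.4% below. Counting all 10 genes, 2 lay above both controls and 1 below, against 17.6% and 8.01% of the whole table. These counts moved with single libraries, as did the shares of the whole table, since 3 libraries separate more easily than 4. Without control 1, 4 of the 10 lay above, against 27.6% of the table. Without control 2, 6 lay below, against 23.3%. Below both controls were 2 without knockout 1, against 13.2%, and 3 without knockout 2, against 16.7%. The log2 fold change of Apoe was -1.58 without knockout 1 and 0.90 without knockout 2. An exact permutation test over 2 against 2 libraries, two-sided, can reach no p smaller than 0.33. Of the 6 fold changes 3 were positive and 3 negative, with a median log2 fold change of 0.44 beside 0.94 for all tested genes. The all-gene value depended on abundance: it stood at 1.35 among genes averaging 1 to 20 FPKM, at 0.78 in the class from 20 to 100 FPKM, and at -0.11 above that.

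**Figure D2:**
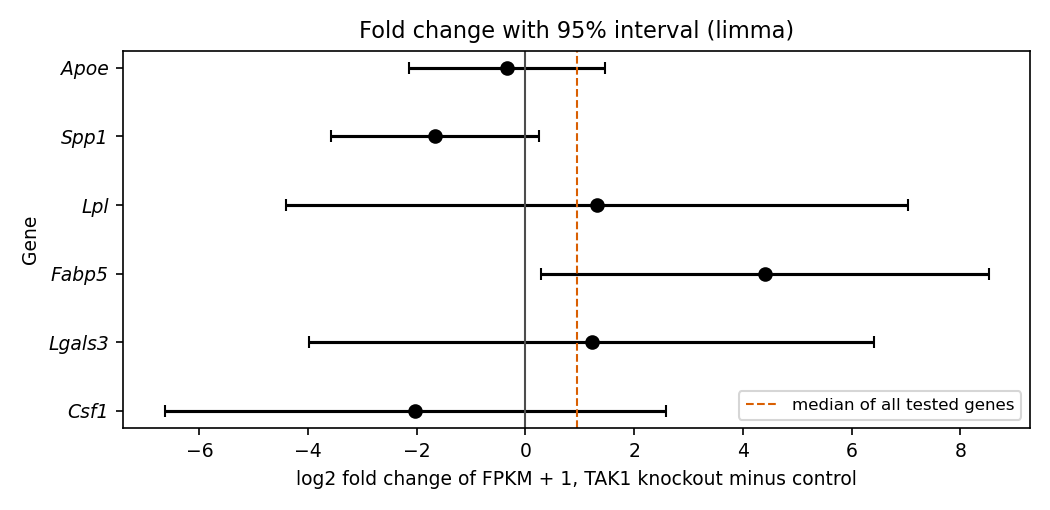
Log2 fold change of FPKM + 1, TAK1 knockout minus control, for the 6 DAM genes tested; points are limma estimates, bars are 95% intervals, and the dashed line is the median of all tested genes, 0.94. Only the interval of Fabp5 lies wholly on one side of 0, and it is not adjusted for the number of genes tested.

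Apoe encodes apolipoprotein E, a lipid carrier that binds TREM2 and low-density lipoprotein receptors and is among the first transcripts to rise in DAM. It lies on chromosome 7 (19696244 to 19701310, GRCm38.p6). Apoe read 9190 and 1647 FPKM in the knockouts, against 4904 and 4968 FPKM in the controls. The 2 control values were nearly equal, and the knockouts lay on either side of them. Apoe was the 7th most abundant gene of the table in knockout 1 and the 62nd in knockout 2, and the 21st in both controls. Group means were 5419 ± 5330 FPKM in knockouts and 4936 ± 45.4 FPKM in controls (SD, n = 2 each). The log2 fold change was -0.34 (SE 0.74, 95% interval -2.15 to 1.46; limma adjusted p = 0.842). The direction depended on which knockout library was kept. Without knockout 1 the log2 fold change of Apoe was -1.58, and without knockout 2 it was 0.90. Without control 1 or control 2 it was -0.35 and -0.33. With 1 knockout library left, its spread is assumed to be that of the controls, which for Apoe was very small. Calls of Apoe in those fits are therefore not read as results.

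Spp1 encodes osteopontin, a secreted phosphoprotein and integrin and CD44 ligand, and is a secreted hallmark of DAM (chromosome 5, 104435111 to 104441053, GRCm38.p6). It read 631 and 2906 FPKM in the knockouts, against 6776 and 2731 FPKM in the controls. The highest value was in control 1 and the lowest in knockout 1, while knockout 2 and control 2 were close, so the groups overlapped. Spp1 averaged 1769 ± 1610 FPKM in knockouts and 4753 ± 2860 FPKM in controls (SD, n = 2 each). The log2 fold change was -1.67 (SE 0.78, 95% interval -3.57 to 0.24; limma adjusted p = 0.698). Dropping any single library left it negative, from -0.57 without knockout 1 to -2.77 without knockout 2, and was never called (limma adjusted p = 0.327 to 0.772). Apoe and Spp1 did not vary together over the libraries: the ratio of Apoe to Spp1 within a library was 14.6 and 0.567 in the knockouts, against 0.724 and 1.82 in the controls.

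Fabp5, a cytosolic fatty acid carrier, was the 1 tested member that was higher in both knockouts than in both controls (chromosome 3, 10012585 to 10016610, GRCm38.p6). It read 35.9 and 118 FPKM in the knockouts, against 6.86 and 0.26 FPKM in the controls. The lower knockout was thus above the higher control, although the controls differed from each other by 26.4-fold. Means were 76.9 ± 58.0 FPKM in knockouts and 3.56 ± 4.67 FPKM in controls (SD, n = 2 each). The log2 fold change was 4.40 (SE 1.68, 95% interval 0.28 to 8.52; limma unadjusted p = 0.0401, adjusted p = 0.62). It was 3.46 above the median of all tested genes, and 4.44% of tested genes had a higher one. The direction held in each fit without 1 library, at 3.08 to 5.72, with limma adjusted p = 0.415 to 0.616. Fabp5 has processed pseudogenes in the mouse genome, and how shared reads were counted is not given in the sources used here, so its level is uncertain to that extent.

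Summed markers of other retinal cells were higher in both knockouts than in both controls, though not gene by gene for every list. Rod photoreceptor markers, 14 of 14 detected, summed to 7070 and 11735 FPKM in the knockouts, against 2921 and 3965 FPKM in the controls. The 10 endothelial and pericyte markers in the table summed to 172 and 37.8 FPKM in the knockouts, against 0.24 and 2.43 FPKM in the controls, and 6 of the 10 stayed under 1 FPKM in every library. Müller glia and astrocyte markers, cells that also express Apoe, summed to 1794 and 1793 FPKM in the knockouts, against 1559 and 1272 FPKM in the controls, with 3 of 14 under 1 FPKM throughout. Retinal ganglion cell markers summed to 110 and 71.2 FPKM in the knockouts, against 32.3 and 44.4 FPKM in the controls, with 6 of 12 under 1 FPKM in all 4 libraries. Of tested rod markers, 12 of 14 lay above both controls and 0 below, and 3 of 3 endothelial and pericyte markers lay above. For Müller glia and astrocyte markers 2 of 10 lay above and 1 below, and for ganglion cell markers 2 of 5 and 0. The shares of all tested genes were 27.8% and 11.4%. Glul and Aldoc were the 2 Müller glia and astrocyte markers above, while Dbi and Clu overlapped between groups. The part of such cells in the values of Fabp5 and Apoe was not tested.

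Lpl and Lgals3 shared a pattern, highest in control 1 and lowest in control 2. Lpl encodes lipoprotein lipase, which releases fatty acids from triglyceride-rich particles (chromosome 8, 68880555 to 68906932, GRCm38.p6). It read 17.6 and 42.2 FPKM in the knockouts, against 106 and 0.21 FPKM in the controls. Lgals3 encodes galectin-3, a secreted galactoside-binding lectin that can bind TREM2 and mark damaged lysosomes (chromosome 14, 47373860 to 47386167, GRCm38.p6). It read 37.7 and 23.6 FPKM in the knockouts, against 93.8 and 0.85 FPKM in the controls. For each gene both knockouts lay between the 2 controls. The controls differed by 504-fold for Lpl and by 110-fold for Lgals3, while the knockouts differed by 2.4-fold and 1.59-fold.

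The log2 fold change of Lpl was 1.32 (SE 2.34, 95% interval -4.41 to 7.04; limma adjusted p = 0.796). For Lgals3 it was 1.22 (SE 2.12, 95% interval -3.98 to 6.42; limma adjusted p = 0.789). Group means went the other way for both, because the mean follows control 1. Lpl averaged 29.9 ± 17.4 FPKM in knockouts and 53.0 ± 74.7 FPKM in controls, and Lgals3 averaged 30.6 ± 9.91 and 47.3 ± 65.7 FPKM (SD, n = 2 each). Leaving out control 1 gave log2 fold changes of 4.55 for Lpl and 4.06 for Lgals3. Leaving out control 2 gave -1.92 for Lpl and -1.62 for Lgals3. Neither was called in any of these fits (limma adjusted p = 0.498 to 0.692). Only 8.21% of tested genes had a larger spread within groups than Lpl, and 15.6% a larger one than Lgals3.

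Csf1 and Itgax were each seen in 1 library at most above 1 FPKM. Csf1 encodes a growth factor of macrophages and microglia. It read 0 and 0.06 FPKM in the knockouts, against 16.3 and 0.02 FPKM in the controls, so that control 1 held 99.5% of its summed FPKM. The log2 fold change of -2.03 (SE 1.88, 95% interval -6.64 to 2.59; limma adjusted p = 0.698) rested on control 1, without which Csf1 was under the filter. Itgax, the CD11c integrin chain of dendritic cells and of activated microglia, read 0.06 and 0.03 FPKM in the knockouts, against 0.12 and 3.71 FPKM in the controls. It lay below both controls, but its mean of 0.98 FPKM was just under the filter. Tested with no filter, its log2 fold change was -1.14 (SE 0.94; limma adjusted p = 0.635).

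Dendritic cell, monocyte and perivascular macrophage markers had smaller sums in the knockouts, beside Itgax. The 11 dendritic cell markers in the table summed to 91.8 and 51.4 FPKM in the knockouts, against 570 and 1044 FPKM in the controls, with 5 of 11 under 1 FPKM in every library and 2 at 0 throughout. In the controls most of that sum was Cd209a, a C-type lectin typical of dendritic cells that arise from monocytes, at 1.19 and 2.10 FPKM in the knockouts and 503 and 886 FPKM in the controls. H2-Oa, a class II chain gene on the same list, went the other way, at 51.3 and 14.7 FPKM in the knockouts and 0 and 0.08 FPKM in the controls. Monocyte markers, 7 in the table, summed to 52.1 and 120 FPKM in the knockouts, against 405 and 442 FPKM in the controls. Of the 7, 2 were under 1 FPKM in every library and 1 was at 0 throughout. Nearly all of the sum in knockout 2 was F13a1, at 119 FPKM, a gene that is also on the perivascular list. Ccr2 was lower in both knockouts, while Plac8, S100a4 and F13a1 overlapped between groups. Perivascular macrophage markers, 10 in the table, summed to 190 and 840 FPKM in the knockouts, against 2334 and 1752 FPKM in the controls. Of the 10, 1 stayed under 1 FPKM. Most of the control sums was Ms4a7, at 189 and 155 FPKM in the knockouts and 1614 and 1547 FPKM in the controls. Clec12a was also lower in both knockouts, while Pf4 and Mrc1 overlapped between groups. Median log2 fold changes were -2.39 for 5 tested dendritic cell markers, -3.12 for 5 tested monocyte markers and -0.36 for 9 tested perivascular markers, beside 0.94 for all tested genes. In that order 3, 1 and 2 lay below both controls and 1, 0 and 0 above, against 11.4% and 27.8% of all tested genes. None of the tested genes on the 3 lists was called. How far these cells contribute to Itgax, Spp1, Apoe or Csf1 was not tested.

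Cst7, Igf1 and Gpnmb were under 1 FPKM in all 4 libraries. Cst7 encodes cystatin F, an inhibitor of lysosomal cathepsins and one of the most specific DAM markers. It read 0.40 and 0.09 FPKM in the knockouts and was listed at 0 in both controls. Igf1 encodes insulin-like growth factor 1, which supports neurons and oligodendrocytes. It read 0.01 and 0.01 FPKM in the knockouts, against 0.02 and 0.01 FPKM in the controls. It overlaps the antisense gene Igf1os, and whether strand was used in counting is not given in the sources used here. Gpnmb, a lysosomal transmembrane glycoprotein of lipid-laden macrophages, read 0 and 0.02 FPKM in the knockouts and was listed at 0 in both controls. All 3 were far below the filter and are given as values only. Tbp was near 0 in only some of the libraries, whereas these 3 genes were low in all 4. Read depth is unknown, so these values show neither presence nor absence at the level of the cell.

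**Figure D3:**
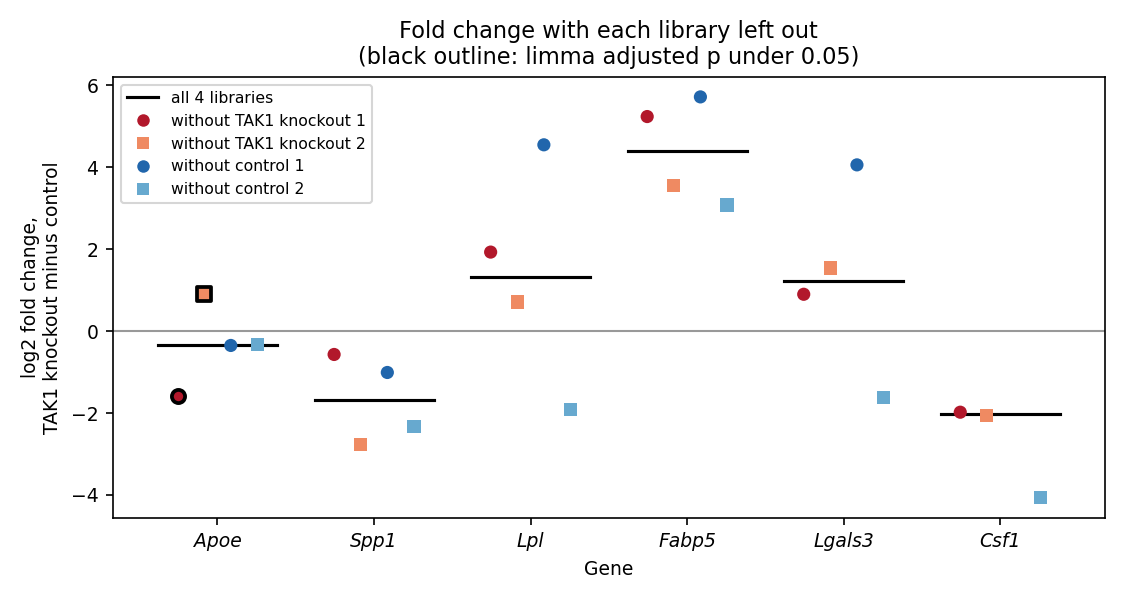
Log2 fold change, TAK1 knockout minus control, of the 6 tested DAM genes with all 4 libraries (bar) and with each library left out (points); a black outline marks a limma adjusted p under 0.05. Apoe lies on opposite sides of 0 without knockout 1 (-1.58) and without knockout 2 (0.90), and Lpl and Lgals3 change sign without control 2.

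Genes of the wider DAM programme went both ways between the groups. Of 30 further genes reported in DAM, 27 were tested, 0 were called higher and 0 lower by limma, and 1 higher and 4 lower had an unadjusted p under 0.05. Their median log2 fold change was 0.18, beside 0.94 for all tested genes. Of the 27, 8 lay above both controls and 5 below, against 27.8% and 11.4% of all tested genes. The 4 most abundant were the MHC class I light chain gene B2m, the iron store protein gene Fth1, the lysozyme gene Lyz2 and Cd52, which encodes a small surface glycoprotein. B2m read 7705 and 7185 FPKM in the knockouts, against 12754 and 11220 FPKM in the controls, with no overlap (log2 fold change -0.68, SE 0.14; limma adjusted p = 0.559). Lyz2 read 2484 and 1894 FPKM in the knockouts, against 9227 and 14880 FPKM in the controls, also with no overlap (log2 fold change -2.43, SE 0.28; limma adjusted p = 0.547). Fth1 and Cd52 overlapped between groups.

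TREM2, the receptor on which late DAM genes depend, and its signalling genes gave no call either. Trem2 read 240 and 55.6 FPKM in the knockouts, against 78.8 and 78.7 FPKM in the controls. As for Apoe, the controls were close to each other and the knockouts lay on either side, knockout 1 being the higher. Tyrobp, the signalling adaptor of TREM2, read 3184 and 1833 FPKM in the knockouts, against 1621 and 1843 FPKM in the controls, and so did not separate the groups. Of 16 genes of TREM2 signalling, 15 were tested, and 2 lay above both controls and 1 below, against 27.8% and 11.4% of all tested genes. The median log2 fold change was -0.26, beside 0.94. Hcst, an alternative adaptor, and Tfec, a transcription factor of the MITF family, were the other abundant members, and Tfec read 0.04 and 0.08 FPKM in the knockouts, against 0 and 121 FPKM in the controls.

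Among 24 genes of lipid uptake, storage and export, 20 were in the table and 15 were tested. Of these, 6 lay above both controls and 1 below, against 27.8% and 11.4% of all tested genes. Limma called 0 in either direction, and 2 higher and 0 lower had an unadjusted p under 0.05, against 6.07% and 1.62%. The median log2 fold change was 1.40, beside 0.94. Npc2, which carries cholesterol out of lysosomes, was nearly constant at 311 and 271 FPKM in the knockouts and 303 and 296 FPKM in the controls. Abcg1, a cholesterol exporter, read 43.7 and 50.5 FPKM in the knockouts, against 55.7 and 266 FPKM in the controls. Soat1, which esterifies cholesterol for storage, read 93.4 and 18.5 FPKM in the knockouts, against 17.4 and 5.46 FPKM in the controls. The fatty acid scavenger receptor gene Cd36 read 0.25 and 0.16 FPKM in the knockouts, against 122 and 0.10 FPKM in the controls.

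Receptors and binding partners of the secreted DAM proteins gave 5 of 16 tested genes above both controls and 4 below, against 27.8% and 11.4% of all tested genes. Limma called 0 in either direction and 0 had an unadjusted p under 0.05, and the median log2 fold change was 0.38, beside 0.94. Csf1r, the receptor of the Csf1 product, read 180 and 119 FPKM in the knockouts, against 62.4 and 102 FPKM in the controls (log2 fold change 0.87, SE 0.90; limma adjusted p = 0.698). The cathepsin genes Ctsc, Ctsl and Ctsh, whose products are among the targets of cystatin F, were expressed in every library at 203 FPKM or more and overlapped between groups. Ctsc, for instance, read 1888 and 1988 FPKM in the knockouts, against 2924 and 1868 FPKM in the controls.

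Homeostatic genes, which DAM normally lose, had a median log2 fold change of 0.92, beside 0.94 for all tested genes. All 16 were tested; both knockouts exceeded both controls in 9 and stood under both in 1, where the shares of all tested genes were 27.8% and 11.4%. At an unadjusted p under 0.05 there were 2 higher and 0 lower, against 6.07% and 1.62% of tested genes, while limma called 0 higher and 0 lower. P2ry12, a purinergic receptor, read 1794 and 830 FPKM in the knockouts, against 569 and 790 FPKM in the controls. Gpr34, a lysophospholipid receptor, read 1862 and 1154 FPKM in the knockouts, against 927 and 481 FPKM in the controls. Cst3, the secreted cystatin C gene, read 37408 and 26937 FPKM in the knockouts, against 28166 and 21980 FPKM in the controls. Knockout 1 held the highest value of all 3 of these genes, as it did of Apoe.

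**Figure D4:**
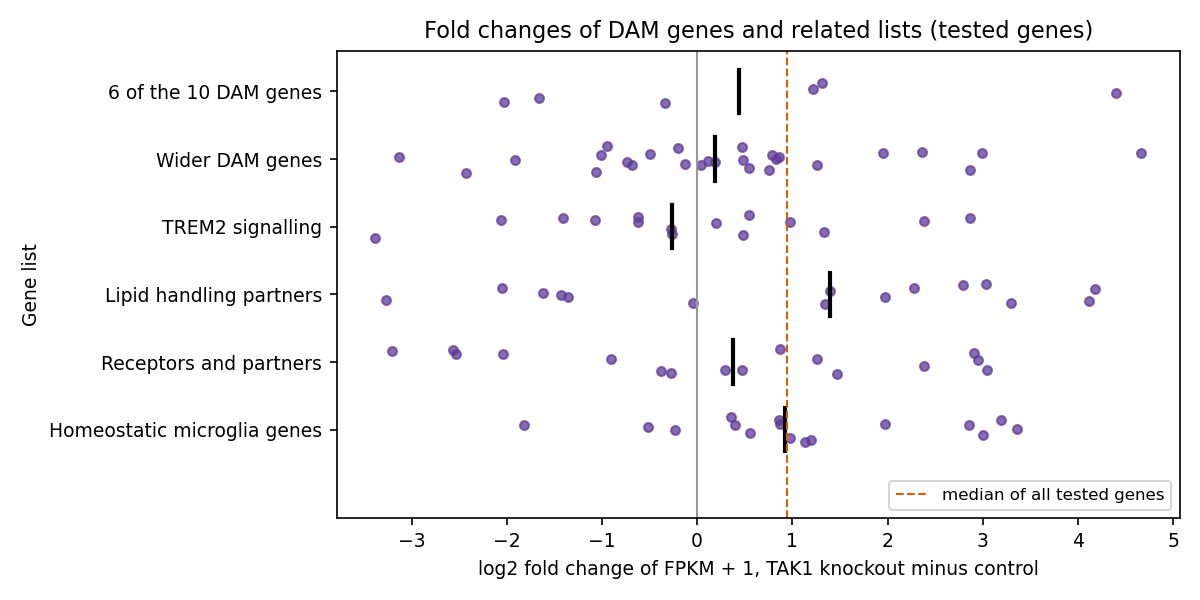
Log2 fold change of FPKM + 1, TAK1 knockout minus control, of each tested gene in the DAM genes and 5 related lists; each point is a gene, black bars are list medians (0.44, 0.18, -0.26, 1.40, 0.38 and 0.92, top to bottom), and the dashed line is the median of all tested genes (0.94). Members of every list lie on both sides of 0.

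As a reference for the spread, 12 housekeeping genes also varied. Ppia, a cyclophilin, read 3978 and 4283 FPKM in the knockouts and 3957 and 4610 FPKM in the controls, whereas Actb, cytoplasmic actin, read 3206 and 6804 FPKM in the knockouts, against 13618 and 16423 FPKM in the controls. For the 134 genes that averaged 1000 FPKM or above, the class of Apoe and Spp1, the median spread within groups was 0.379 log2 units, while it was 1.24 for Apoe and 1.28 for Spp1.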

How the data were processed

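Per the labels' protocols, microglia were sorted on EYFP and PCR amplified the full-length cDNA of 200 cells per library. The deposited table holds FPKM computed by the authors, rounded to 2 decimals. The submitters' processing notes name build mm10. No source used here names the aligner, quantifier or annotation. Depth is unknown, so no counting interval was given. Columns were matched to samples by title. Coordinates came from a GRCm38.p6 gene table that held 15470 of the 15586 gene IDs.

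Log2(FPKM + 1) was tested with limma 3.58.1 (R 4.3.3) for 7823 genes averaging 1 FPKM or more, with a trended prior (3.99 degrees of freedom, beside 2 residual), Benjamini-Hochberg adjustment over all of them and a threshold of 0.05. The code was tested on simulated data. Figures used matplotlib 3.10.9. The members, lists and tests were chosen with earlier results of these data known. Besides the members, Map3k7, Trem2, Tyrobp and the 4 genes of each list with the highest mean could be named. Tbp, Apoc1, Apoc2 and Apoc4 were named after their values were seen. Alternatives changed the pseudocount (0.1, 0.5 or 5 FPKM), the filter (none, or a mean of 5 or 100 FPKM), the scaling, the variance model, the design (replicate block) or the libraries kept (each left out). Some genes the naming rule covers are not reported here.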

Additional observations from a re-analysis of the deposited data

How the results depend on the processing

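Each group had 2 libraries, and depth was unknown. Over the whole table limma called 0 genes higher and 0 lower as reported and under every alternative of pseudocount, filter, scaling and variance. The replicate numbers share no known source (correlation of deviations 0.0166). With them as a replicate block, limma called 15 genes higher and 20 lower. Among them was 1 DAM gene, Spp1, called lower (-1.67, limma adjusted p = 0.000659). For Spp1, replicate 1 minus replicate 2 was 1.31 log2 units in the controls and -2.2 in the knockouts. A shared block cannot take up differences in opposite directions, so that call of Spp1 is not read as a result. Leaving out 1 library gave 0 to 1306 genes higher and 0 to 5 lower (697 and 4 without knockout 1, 1306 and 5 without knockout 2, 0 without either control), and among DAM genes 0 to 1 higher and 0 to 1 lower, in each case Apoe, whose log2 fold change ran from -1.58 to 0.90. That of Lpl ran from -1.92 to 4.55 and that of Lgals3 from -1.62 to 4.06. Quantile normalization turned Lpl to -0.05 and Lgals3 to -0.28; the cause was not tested. The median log2 fold change of the tested DAM genes was 1.85 without control 1, -1.77 without control 2, -0.57 without knockout 1 and 0.71 without knockout 2. In the same order the all-gene median was 1.38, 1.04, 0.64 and 0.96. The filter let in 6, 6, 7 and 7 DAM genes in these fits, not always the same ones, as Csf1 was not tested without control 1. The DAM and all-gene medians were 0.44 and 0.94 as reported, -0.35 and 0.32 under median ratio scaling, -0.16 and 0.19 under quantile normalization, 0.05 and 0.50 at a pseudocount of 5, 0.66 and 1.26 at 0.1, 1.22 and 0.70 at a mean of at least 5 FPKM, where Csf1 was not tested, 0 and 0.01 with no filter, and -1.0 and -0.11 at 100 FPKM, where Apoe and Spp1 alone were tested. Members above both controls numbered 1 at a mean of at least 5 FPKM and 0 at 100 FPKM, where fewer genes were tested. With a library left out they numbered 2 to 4, against 26.4% to 37.7% of the whole table. Members below both controls numbered 0 at 5 FPKM, 0 at 100 FPKM and 3 under median ratio scaling. With a library left out they numbered 1 to 6, against 13.2% to 23.3% of the whole table. The shares of all genes at these filters and under median ratio scaling were not computed, so those counts have no background to be read against. The difference in summed FPKM share ran from -0.476 to 0.144 percentage points with a library left out.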

Other observations

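The genes beside Apoe on chromosome 7 were looked at after the Apoe values were seen. Apoc1, Apoc4 and Apoc2 encode further apolipoproteins of the same cluster. Apoc1 read 334 and 0 FPKM in the knockouts, against 0 and 17.2 FPKM in the controls. Apoc4 read 115 and 0 FPKM in the knockouts and was listed at 0 in both controls. Apoc2 read 113 and 0.26 FPKM in the knockouts, against 198 and 390 FPKM in the controls. Between the 2 knockouts, all 4 genes of the cluster were higher in knockout 1 than in knockout 2. Between the groups the cluster did not move as one.

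Ratios within a library do not depend on library scaling, and were also looked at after the values were seen. Fabp5 relative to each of the 10 microglial and myeloid markers was higher in both knockouts than in both controls for 10 of 10 markers. All 10 ratios share the Fabp5 values, which did not overlap between groups before any ratio was taken. They are therefore not 10 separate results. With no ratio taken, 27.8% of all tested genes lay above both controls and 11.4% below, and the same shares for ratios were not computed. Apoe relative to the same markers was lower in both knockouts for 3 of 10 and overlapped for 7. Spp1 was lower for 5 of 10 and overlapped for 5. The markers themselves differed between libraries, so these ratios show unequal change within a pair of genes and not which of them differed.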
